A study of Mus musculus with 6 samples.

Results

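The genes described here encode oxidative phosphorylation, the 5 protein complexes of the inner mitochondrial membrane that pass electrons to oxygen and make ATP. Members were the protein-coding rows of the deposited count table that lie on the mitochondrial chromosome or carry a nuclear symbol starting with Nduf, Uqcr, Cox4 to Cox8 or Atp5, or one of Sdha, Sdhb, Sdhc and Sdhd. This gave 107 genes of 54532 rows, 13 on the mitochondrial genome and 94 in the nucleus. Of these, 12 mitochondrial and 89 nuclear genes had enough counts to be tested, out of 13705 tested genes in all.

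Complexes I, III, IV and V are built from proteins of both genomes, while complex II is encoded by the nucleus alone. The mitochondrial genes are transcribed inside the organelle as long joint precursors that are then cut into single messages, whereas each nuclear gene has its own promoter, often bound by NRF1 and ETS-family factors. Stromal cells in culture can draw ATP from glycolysis as well as from respiration, and respiration is known to rise as such cells turn to bone formation.

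RNA came from mesenchymal stromal cells (MSCs) of mouse alveolar bone, the jaw bone around the teeth. The 6 libraries were 3 from wild-type (WT) mice and 3 from Ccrl2-KO mice (KO), which lack an atypical chemokine receptor that binds chemerin. According to the series' design, cells of both genotypes had TNFα-induced inflammation during osteogenic induction. By that design no untreated cells were analysed here. The sample titles give no treatment, and the count columns carry the word Ctrl, which has no stated meaning. The labels leave out the age and strain of the mice, how the allele was made, and whether a mouse gave 1 replicate or more. Where replicates share a mouse, p-values here cover the spread of cultures alone.

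Total counts were 16114974 to 18616433 per library. Reads of the targeted gene Ccrl2 were too few to check the genotype labels firmly, with 7 counts summed over the WT libraries and 0 over the KO libraries. All 10 stromal markers on a fixed list were detected, with a summed level of 62855 to 74906 CPM in WT and 46078 to 69462 CPM in KO (CPM, counts scaled to a common library size with edgeR's TMM factors). Of the 10, 1 was called lower in KO and 0 higher by edgeR at an adjusted p under 0.05, beside 2.67% of all tested genes. All 12 macrophage markers were detected too, at a summed 354 to 400.3 CPM in WT and 87.5 to 98.6 CPM in KO. Of the 12, 10 were called lower in KO by edgeR at an adjusted p under 0.05, beside 2.67% of all tested genes called in either direction. The cultures therefore differed in macrophage RNA between the groups, and the part this has in the values given here was not tested. In bulk RNA, fewer cells of a type and less RNA per cell cannot be told apart. One library, KO replicate 2, stood apart in many of the genes described here, with 16428 rows holding a count against 18928 to 19372 in the other 5. For this reason values without it are given beside those with all libraries.

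Mitochondrial sequence also lies in the nuclear genome, and 1 such stretch bears on how mitochondrial genes were counted. A copy of mitochondrial DNA on mouse chromosome 1 is annotated as separate pseudogene rows, and the sequences are shown because several rows match their mitochondrial gene base for base. The first 294 bases of mt-Nd4l, a complex I membrane subunit (chrMT:9877-10170, plus strand, GRCm38), were identical to the pseudogene Gm10222 (chr1:24612407-24612700, minus strand), so 1 sequence stands for both. The second pair shows the single mismatch found where Gm29216 was aligned to the last 483 bases of mt-Co1, and holds the first stretch of that alignment in Gm29216 (chr1:24616099-24616188, minus strand) and in mt-Co1 (chrMT:6390-6479, plus strand). The mismatch is written A1066T with positions counted from 1 at the first base of mt-Co1. It lies close to the edge of the alignment. Gm29216 has 492 bases, and those before the aligned 483 were not aligned. Capitals mark the mismatched base.
mt-Nd4l: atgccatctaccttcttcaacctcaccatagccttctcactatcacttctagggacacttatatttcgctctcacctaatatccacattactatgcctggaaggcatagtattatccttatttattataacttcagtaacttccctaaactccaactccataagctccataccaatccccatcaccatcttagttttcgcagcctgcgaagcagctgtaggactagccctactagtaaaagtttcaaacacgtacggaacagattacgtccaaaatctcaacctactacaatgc
mt-Co1: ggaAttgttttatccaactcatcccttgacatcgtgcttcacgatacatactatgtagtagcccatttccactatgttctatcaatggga
Gm29216: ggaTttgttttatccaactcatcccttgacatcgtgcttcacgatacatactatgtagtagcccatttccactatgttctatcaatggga

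The mitochondrial genes fell into 2 tiers of level that differed in how much of their sequence is found elsewhere. Levels between genes are compared as CPM per kilobase of transcript. The upper tier held mt-Co1, the catalytic subunit of complex IV (4101 CPM per kb), mt-Cytb, the cytochrome b of complex III (1987), and the complex I membrane subunits mt-Nd1 (1645), mt-Nd6 (978), mt-Nd2 (959), mt-Nd5 (900.2) and mt-Nd4 (722 CPM per kb). These 7 genes took 99.3% to 99.6% of all mitochondrial protein-coding counts in every library. The lower tier held mt-Co2, a copper-binding subunit of complex IV (41.7 CPM per kb), mt-Atp6, the proton channel of ATP synthase (31.8), mt-Nd4l (21.4), mt-Co3 of complex IV (18.5) and mt-Nd3 of complex I (10.2 CPM per kb).

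All 5 lower-tier genes had nearly their whole sequence in another annotated transcript. Every 50-base window of mt-Co2 was found elsewhere in GENCODE M21, and the share was 99.9% for mt-Co3, 99.5% for mt-Atp6, 98.8% for mt-Nd4l and 97.99% for mt-Nd3. In the upper tier it was 62.2% for mt-Nd4 and 51.1% for mt-Co1, between 7.61% and 8.19% for mt-Nd5 and mt-Nd2, and 0 for mt-Cytb, mt-Nd1 and mt-Nd6. Reads from shared windows cannot be placed by sequence, and the labels do not name the counting rule for them. The levels of the 5 lower-tier genes are therefore uncertain. Those of mt-Nd4 and mt-Co1 are uncertain in part for the same reason, as are their fold changes given below. The chromosome 1 rows themselves held 676 to 1838 counts per library. mt-Atp8, the small ATP synthase subunit, had 0 to 3 counts per library and none of its windows elsewhere in the annotated transcripts. It was too low to be tested, and whether unannotated nuclear sequence matches it was not tested.

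**Figure D1:**
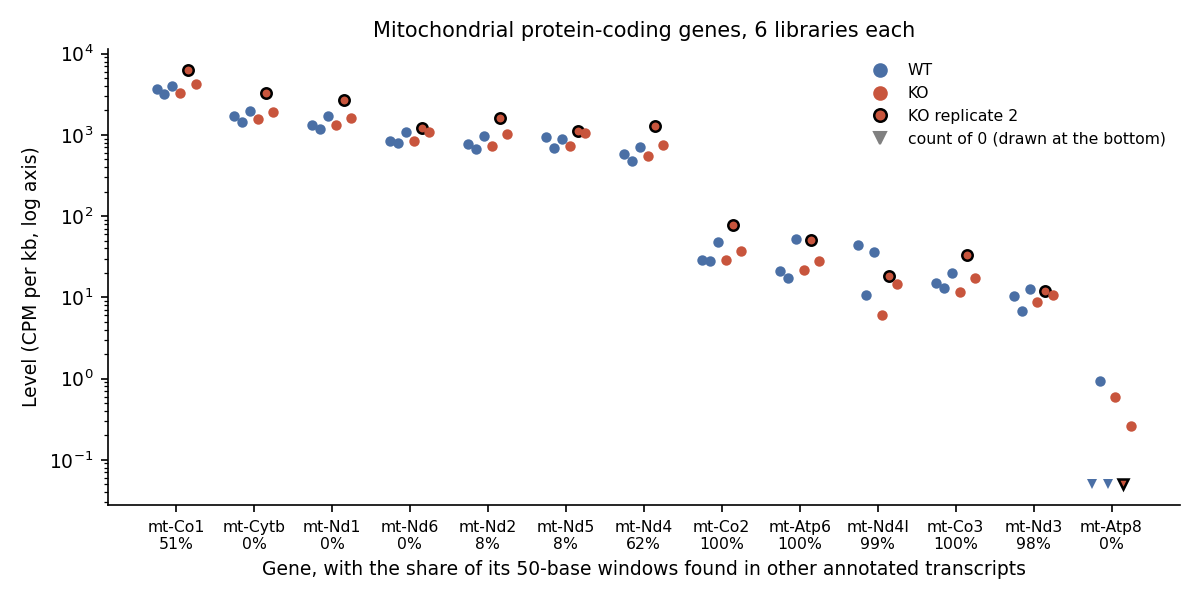
Level of each mitochondrial protein-coding gene in the 6 libraries (points, CPM per kb of transcript on a log axis), ordered by mean level, with the share of 50-base windows found in other annotated transcripts under each name. The 7 genes on the left lie between 722 and 4101 CPM per kb on average, and the 5 whose sequence is almost wholly shared lie between 10.2 and 41.7.

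Both genomes were compared within each library through the summed level of their genes. The mitochondrial sums, shares and ratios rest almost wholly on the upper-tier genes, at 99.3% to 99.6% of the mitochondrial counts. Counts of the lower tier are uncertain, so these values may not give the full balance of the genomes. The 13 mitochondrial genes summed to 12627, 10702 and 14315 CPM in the WT libraries and 11507, 22304 and 14924 CPM in the KO libraries, in the order of replicates 1, 2 and 3 that is kept below. The highest library was KO replicate 2, and without it the groups overlapped, with KO replicate 1 below 2 of the 3 WT libraries. The 94 nuclear genes summed to 4493, 4715 and 5358 CPM in the WT libraries and 5442, 7770.4 and 4887 CPM in the KO libraries. Again KO replicate 2 was highest, and the remaining KO libraries were among the WT values or just above them. The mean of the mitochondrial sum was 12548 ± 1808 CPM in WT and 16245 ± 5518 CPM in KO (SD, n = 3 each), a ratio of 1.29 that became 1.05 without KO replicate 2. For the nuclear sum it was 4856 ± 449 CPM in WT and 6033 ± 1530.0 CPM in KO (SD, n = 3 each), a ratio of 1.24 that became 1.06.

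The balance of counts from the 2 genomes differed among libraries of 1 group by more than it differed between the groups. The log2 ratio of mitochondrial to nuclear counts was 1.49, 1.18 and 1.42 in WT and 1.08, 1.52 and 1.61 in KO. KO held both the lowest library, replicate 1, and the highest, replicate 3, while replicate 2 lay just above WT replicate 1. The means were 1.36 ± 0.16 in WT and 1.40 ± 0.28 in KO (SD, n = 3 each), a difference of 0.04 with all libraries and -0.02 without KO replicate 2. The mitochondrial genes took 1.05% to 2.23% of all counts and the nuclear ones 0.441% to 0.777%. In both, KO replicate 2 was the highest library, so the sum of each genome stood apart there although their ratio did not.

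**Figure D2:**
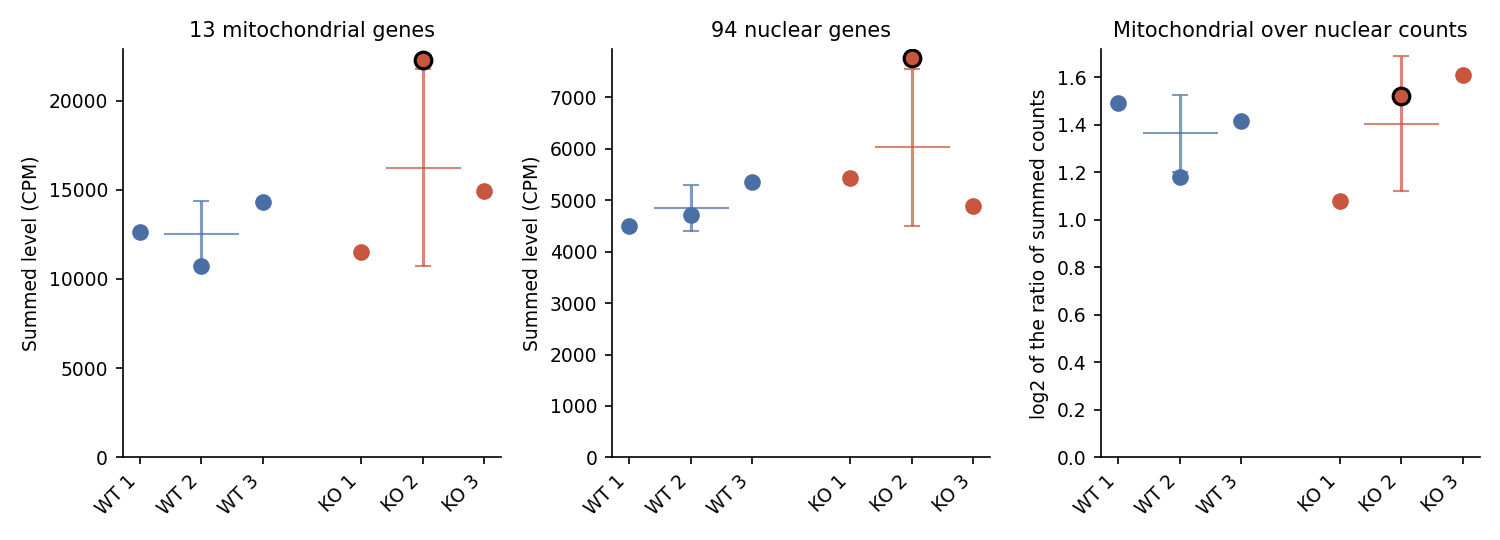
Summed CPM of the mitochondrial and of the nuclear genes and the log2 ratio of their counts in each library (points), with the mean and SD of each group (lines) and KO replicate 2 outlined. KO replicate 2 is the highest library in both sums, at 22304 and 7770.4 CPM, but lies between other libraries in the ratio. The mitochondrial values rest almost wholly on the upper-tier genes.

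No gene of either genome was called changed between KO and WT, beside 2.67% of all tested genes (edgeR's quasi-likelihood test, Benjamini-Hochberg adjusted p under 0.05 over 13705 genes). DESeq2 and limma-voom called 0 of the 101 tested members as well, beside 4.79% and 2.55% of all genes. At an unadjusted p under 0.05, edgeR held 6 members, all nuclear and all higher in KO, beside 14.5% of all tested genes in either direction and 5.68% higher in KO. Without the filter on low counts edgeR called 13 members, 12 nuclear ones higher and mt-Nd4l lower, beside 3.67% of all genes. The median log2 fold change was 0.39 over the 89 nuclear genes, of which 85 were positive, and 0.37 over the 12 mitochondrial genes, of which 11 were positive. Over all tested genes it was 0.02, and 7159 of 13705 were positive. Without KO replicate 2 the same medians were 0.08, 0.06 and 0.01, and again 0 members were called, beside 4.33% of the 14096 genes then tested. Positive values then remained in 73 of the 89 nuclear and 7 of the 12 mitochondrial genes, beside 7060 of the same 13705 genes. The mitochondrial median also moved to 0.57 without KO replicate 1. On simulated counts with the same means and library sizes, the test recovered 69% of 2-fold and 91% of 4-fold changes over 13430 genes (smaller folds were not simulated). The changed genes were drawn from all genes, and no simulated library was made to stand apart as KO replicate 2 did. These shares therefore do not give the recovery among the members. The largest positive log2 fold change of a member, 1.40 ± 0.88 (SE) for Uqcrb, was not called.

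Among the mitochondrial genes of complex I, mt-Nd1, mt-Nd2, mt-Nd4, mt-Nd5 and mt-Nd6 were highest in KO replicate 2, and mt-Nd3 and mt-Nd4l, given below, were not. mt-Nd1, a membrane subunit near the quinone site, had 1268, 1119 and 1633 CPM in the WT libraries and 1280.4, 2597 and 1549 CPM in the KO libraries (log2 fold change 0.43 ± 0.25 (SE), adjusted p = 0.458). mt-Nd2, a proton-pumping subunit, had 806, 688 and 1008 CPM in the WT libraries and 756, 1651 and 1062 CPM in the KO libraries (log2 fold change 0.47 ± 0.27 (SE), adjusted p = 0.452). mt-Nd4, another proton-pumping subunit, had 798, 660.0 and 965 CPM in the WT libraries and 760.1, 1748 and 1036 CPM in the KO libraries (log2 fold change 0.55 ± 0.29 (SE), adjusted p = 0.433). In these 3 genes KO replicate 2 was the highest library and WT replicate 2 the lowest, and the groups overlapped. mt-Nd5, the third such pump subunit, had 1718, 1243 and 1616 CPM in the WT libraries and 1317, 2061 and 1897 CPM in the KO libraries (log2 fold change 0.20 ± 0.18 (SE), adjusted p = 0.599). mt-Nd6, the only one of the 13 encoded on the other strand of the mitochondrial genome, had 433, 417 and 561 CPM in the WT libraries and 431, 639 and 565 CPM in the KO libraries (log2 fold change 0.21 ± 0.16 (SE), adjusted p = 0.555). KO replicate 2 exceeded the next library by less in these than in mt-Nd4, at 1.09 times for mt-Nd5 and 1.13 times for mt-Nd6 against 1.69 times for mt-Nd4. Leaving out KO replicate 2 gave log2 fold changes of 0.08 for mt-Nd1, 0.12 for mt-Nd2, 0.15 for mt-Nd4, 0.08 for mt-Nd5 and 0.08 for mt-Nd6. The sources used here do not say that strand was counted, so reads of mt-Nd6 and of the opposite strand's precursor cannot be told apart.

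In complexes III and IV the abundant genes had the same highest library as mt-Nd1, KO replicate 2. mt-Cytb had 1928, 1669 and 2257 CPM in the WT libraries and 1813, 3760.4 and 2208 CPM in the KO libraries (log2 fold change 0.41 ± 0.25 (SE), adjusted p = 0.4696), and mt-Co1 had 5613, 4859 and 6175 CPM in the WT libraries and 5101, 9724 and 6540.4 CPM in the KO libraries (log2 fold change 0.36 ± 0.21 (SE), adjusted p = 0.446). In both, KO replicate 2 was 1.49 to 1.67 times the next library and the remaining KO libraries lay inside or near the WT range. Without KO replicate 2 the log2 fold changes were 0.04 for mt-Cytb and 0.07 for mt-Co1. mt-Co1 alone took 43.1% to 45.4% of the mitochondrial counts, a narrow range over all 6 libraries. Since 51.1% of its 50-base windows are found elsewhere, this share is uncertain in part.

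Of the lower-tier mitochondrial genes, mt-Nd4l had the largest difference. Its levels were 12.9, 3.15 and 10.7 CPM in the WT libraries and 1.798, 5.36 and 4.297 CPM in the KO libraries, with 219, 50 and 197 counts in the WT libraries and 30, 87 and 81 counts in the KO libraries (log2 fold change -1.22 ± 0.54 (SE), adjusted p = 0.346). The groups overlapped, since WT replicate 2 lay below KO replicates 2 and 3, and without KO replicate 2 the log2 fold change was -1.54. mt-Co2 had 19.7, 19.3 and 33.2 CPM in the WT libraries and 19.7, 53.3 and 25.8 CPM in the KO libraries (log2 fold change 0.45 ± 0.40 (SE), adjusted p = 0.623), mt-Co3 had 11.8, 10.3 and 15.5 CPM in the WT libraries and 9.17, 26.4 and 13.6 CPM in the KO libraries (log2 fold change 0.38 ± 0.35 (SE), adjusted p = 0.619) and mt-Atp6 had 14.4, 11.7 and 35.2 CPM in the WT libraries and 14.6, 34.9 and 19.3 CPM in the KO libraries (log2 fold change 0.16 ± 0.52 (SE), adjusted p = 0.903). KO replicate 2 or WT replicate 3 was the highest library in each, and without KO replicate 2 the values were -0.08, -0.14 and -0.27, opposite in sign. mt-Nd3 had 3.596, 2.39 and 4.45 CPM in the WT libraries and 3.06, 4.19 and 3.71 CPM in the KO libraries (log2 fold change 0.07 ± 0.30 (SE), adjusted p = 0.936), again with overlapping groups, and a log2 fold change of -0.04 without KO replicate 2. Since each of these genes has a near-identical nuclear copy, none of these values can be read as mitochondrial RNA alone.

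Complex I takes electrons from NADH, and all 36 of its tested nuclear subunit genes had a positive log2 fold change, none of them called. The median was 0.14 over the 7 core subunits, which carry the flavin and iron-sulphur clusters, and 0.45 over the 29 accessory subunits. Without KO replicate 2 these medians were 0.07 and 0.08. The 3 genes of smallest p in the complex were accessory subunits of its membrane arm. Ndufb5 had 30.2, 31.7 and 35.7 CPM in the WT libraries and 36.6, 68.8 and 37.5 CPM in the KO libraries (log2 fold change 0.55 ± 0.23 (SE), adjusted p = 0.298). Ndufb2 had 6.07, 7.05 and 9.98 CPM in the WT libraries and 9.71, 22.2 and 9.28 CPM in the KO libraries (log2 fold change 0.83 ± 0.34 (SE), adjusted p = 0.303). Ndufb9 had 11.8, 16.3 and 14.9 CPM in the WT libraries and 16.7, 26.8 and 17.3 CPM in the KO libraries (log2 fold change 0.50 ± 0.21 (SE), adjusted p = 0.309). For Ndufb5 and Ndufb9 every KO library lay above every WT library, by a small margin for KO replicates 1 and 3, and for Ndufb2 the groups overlapped. Without KO replicate 2 the log2 fold changes were 0.19, 0.30 and 0.25. Ndufb5 shares 16.2% of its 50-base windows with other genes, mainly Mrpl47 on the opposite strand, and Ndufb9 shares 23.4%. The most abundant nuclear complex I gene per length was Ndufa11, a membrane-arm accessory subunit (121 CPM per kb), with 51.2, 51.3 and 68.8 CPM in the WT libraries and 63.95, 107 and 53.7 CPM in the KO libraries (log2 fold change 0.39 ± 0.24 (SE), adjusted p = 0.476), and its log2 fold change was 0.04 without KO replicate 2. The 8 Ndufaf genes, which encode assembly factors of complex I, had a median log2 fold change of 0.32 and of 0.04 without KO replicate 2.

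Complex II, succinate dehydrogenase, links the TCA cycle to the chain and had a median log2 fold change of 0.18 over its 4 genes and of 0.11 without KO replicate 2. Sdha, the flavoprotein, had 130.0, 142 and 145 CPM in the WT libraries and 149.9, 145 and 146 CPM in the KO libraries (log2 fold change 0.08 ± 0.10 (SE), adjusted p = 0.717). Sdhb, the iron-sulphur subunit and the most abundant of the 4 per length (82.1 CPM per kb), had 78.99, 80.5 and 87.02 CPM in the WT libraries and 94.7, 137 and 84.8 CPM in the KO libraries (log2 fold change 0.36 ± 0.16 (SE), adjusted p = 0.354). Sdhd, a membrane anchor, had 71.7, 72.2 and 85.2 CPM in the WT libraries and 83.3, 111 and 83.3 CPM in the KO libraries (log2 fold change 0.28 ± 0.14 (SE), adjusted p = 0.391). KO replicate 2 was highest for Sdhb and Sdhd but not for Sdha. The groups overlapped in all 3 genes. Sdhc, the other anchor, was highest in WT replicate 3 and lowest in KO replicate 2, at 123 and 88.6 CPM, and its log2 fold change of -0.03 turned to 0.07 without KO replicate 2. The other 3 genes stood at 0.09 for Sdha, 0.13 for Sdhb and 0.13 for Sdhd without that library.

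Complex III, the cytochrome bc1 complex, had 8 tested nuclear genes with a median log2 fold change of 0.56, and 0.11 without KO replicate 2. Uqcr11, its smallest subunit, had 11.4, 10.8 and 15.6 CPM in the WT libraries and 18.2, 21.9 and 11.6 CPM in the KO libraries (log2 fold change 0.45 ± 0.24 (SE), adjusted p = 0.418). Uqcrc2, a core protein, had 77.5, 78.8 and 76.1 CPM in the WT libraries and 78.3, 101 and 88.7 CPM in the KO libraries (log2 fold change 0.21 ± 0.12 (SE), adjusted p = 0.439). Uqcrfs1, the Rieske iron-sulphur protein, had 56.9, 60.4 and 66.9 CPM in the WT libraries and 66.3, 79.5 and 64.2 CPM in the KO libraries (log2 fold change 0.19 ± 0.12 (SE), adjusted p = 0.488). In these 3 genes KO replicate 2 was the highest library, and the groups overlapped in each. Uqcr10, the most abundant of these 8 members per length of transcript (103 CPM per kb), had 26, 30.3 and 43.5 CPM in the WT libraries and 41.7, 97.4 and 28.6 CPM in the KO libraries (log2 fold change 0.75 ± 0.49 (SE), adjusted p = 0.521). Its value in KO replicate 2 was 2.24 times that of WT replicate 3, the next library, while KO replicate 3 lay below WT replicate 2. With KO replicate 2 left out, the log2 fold changes were 0.24 for Uqcr11, 0.11 for Uqcrc2, 0.09 for Uqcrfs1 and 0.08 for Uqcr10. Uqcrc2 shares 24.8% of its 50-base windows with Pdzd9 on the opposite strand, and Uqcr11 shares 10.9% with a pseudogene.

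Complex IV, cytochrome c oxidase, had 15 tested nuclear genes with a median log2 fold change of 0.55 and of 0.01 without KO replicate 2. Cox5b, which binds zinc, had 19.9, 20.1 and 27.3 CPM in the WT libraries and 33.9, 46.5 and 19.8 CPM in the KO libraries (log2 fold change 0.57 ± 0.27 (SE), adjusted p = 0.382). Cox6c, a small membrane subunit, had 10.6, 13.7 and 22.5 CPM in the WT libraries and 22.8, 76.03 and 15.3 CPM in the KO libraries (log2 fold change 1.28 ± 0.70 (SE), adjusted p = 0.458). KO replicate 2 was 1.37 times the next library for Cox5b and 3.34 times for Cox6c, and KO replicate 3 lay inside the WT range or just below it. Their log2 fold changes were 0.25 and 0.28 without KO replicate 2. Cox5b shares 25.9% of its 50-base windows with Gm11273 and Cox6c 13.9% with a pseudogene. Ndufa4l2, a hypoxia-responsive relative of the complex IV subunit Ndufa4, went the other way, with 44, 21 and 35 counts in the WT libraries and 18, 0 and 19 counts in the KO libraries (log2 fold change -1.46 ± 0.76 (SE), adjusted p = 0.4101). It was the only tested member with every KO library below every WT library, beside 11.8% of all tested genes, and its log2 fold change was -0.89 without KO replicate 2, where it had 0 counts, which allows up to 3.

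Complex V, the ATP synthase, had 16 tested nuclear genes with a median log2 fold change of 0.49 and of 0.09 without KO replicate 2. Atp5g1, a gene for the c subunit of the rotor ring, had 54.2, 61.5 and 67.3 CPM in the WT libraries and 79.7, 115 and 61 CPM in the KO libraries (log2 fold change 0.48 ± 0.20 (SE), adjusted p = 0.305). Atp5f1, the stator subunit b, had 105, 104 and 128 CPM in the WT libraries and 120.4, 247 and 129.6 CPM in the KO libraries (log2 fold change 0.56 ± 0.26 (SE), adjusted p = 0.372). Atp5j, the coupling factor F6 of the stalk, had 41.03, 46.7 and 51.1 CPM in the WT libraries and 51.2, 97.8 and 48.4 CPM in the KO libraries (log2 fold change 0.51 ± 0.25 (SE), adjusted p = 0.3904). KO replicate 2 was 1.45 to 1.91 times the next library in these 3, and the groups overlapped. Atp5b, the catalytic beta subunit and the most abundant nuclear member of the complex per length (362 CPM per kb), had 631, 673 and 677 CPM in the WT libraries and 739, 751 and 685 CPM in the KO libraries (log2 fold change 0.14 ± 0.10 (SE), adjusted p = 0.542). Here KO replicate 2 did not stand apart, and every KO library lay above every WT library by a small margin. The log2 fold changes without KO replicate 2 were 0.20 for Atp5g1, 0.16 for Atp5f1, 0.11 for Atp5j and 0.11 for Atp5b. Atp5f1 shares 38.7% of its 50-base windows with other genes, among them the pseudogene Gm12231, and is uncertain for that reason, while Atp5j shares 16.3% and Atp5g1 11.6%.

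Of the 89 tested nuclear genes, 6 had every KO library above every WT library, beside 8.84% of all tested genes, and 1, Ndufa4l2, had the reverse. Beside Ndufb5, Ndufb9 and Atp5b these were Ndufaf5, a complex I assembly factor, Uqcrc1, a core protein of complex III, and Atp5a1, the alpha subunit of ATP synthase, named after their values were seen. Atp5a1 had 419, 427 and 436 CPM in the WT libraries and 478, 506 and 459 CPM in the KO libraries (log2 fold change 0.17 ± 0.10 (SE), adjusted p = 0.446), and Uqcrc1 had 152, 157 and 157 CPM in the WT libraries and 175, 159.6 and 158 CPM in the KO libraries (log2 fold change 0.08 ± 0.10 (SE), adjusted p = 0.717). These values were 0.13 and 0.10 without KO replicate 2. Without KO replicate 2, 8 nuclear genes had KO above WT, beside 13.7%, and 1 had KO below WT, beside 15.3%. No mitochondrial gene had groups that did not overlap, with or without that library. These counts lay near or below the shares over all genes.

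**Figure D3:**
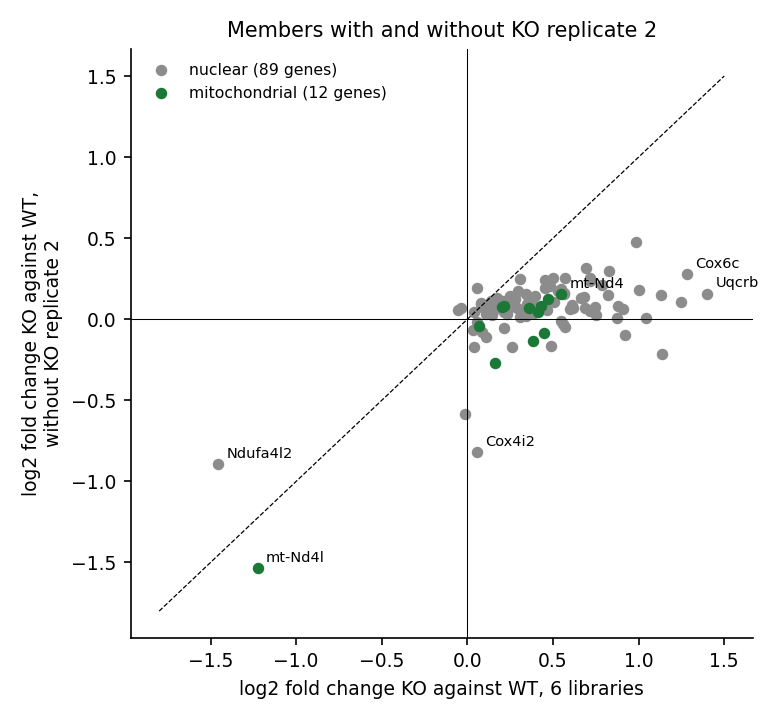
Log2 fold change of each tested gene with all 6 libraries (horizontal) and without KO replicate 2 (vertical), nuclear genes in grey and mitochondrial genes in green, with the line of equal values dashed. Most points lie right of 0 and below the line, with medians of 0.39 and 0.08 for nuclear and 0.37 and 0.06 for mitochondrial genes.

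KO replicate 2 was the highest library for 81 of the 89 tested nuclear genes and for 9 of the 12 mitochondrial ones, beside 32.1% of all tested genes. It was at least 2-fold above every other library for 19 nuclear genes and 0 mitochondrial genes, beside 1.54% of all tested genes. The excess, as the log2 of CPM + 0.5 in KO replicate 2 minus the mean of the other 5 libraries, was largest for short nuclear genes, named here after their values were seen. Uqcrb, a quinone-binding complex III subunit, had 7.66, 7.996 and 23.4 CPM in the WT libraries and 15.2, 74.7 and 14.1 CPM in the KO libraries, an excess of 2.53. Ndufc1, a small complex I subunit, had 14.3, 14.8 and 24.9 CPM in the WT libraries and 23.7, 89.96 and 15.2 CPM in the KO libraries, an excess of 2.29. Cox7c, a small complex IV subunit, had 23.8, 18.8 and 36.8 CPM in the WT libraries and 31.3, 111 and 22.1 CPM in the KO libraries, an excess of 2.08. In all 3 genes KO replicate 2 was over 3 times the next library, while KO replicate 3 lay between the WT values. Uqcrb and Cox7c share 43.4% and 52.95% of their 50-base windows with other genes, mostly pseudogenes, and are uncertain for that reason, while Ndufc1 shares 5.25%. Atp5mpl, a small ATP synthase membrane subunit, had an excess of 2.37 and Cox6c of 2.19.

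The excess fell with coding length in the module and in all genes. For nuclear genes with up to 300 coding bases its median was 1.52 (23 genes), beside 0.69 over all 240 tested protein-coding genes of that length. From 300 to 450 bases it was 0.93 (24 genes) beside 0.46, from 450 to 600 bases 0.57 (18 genes) beside 0.27, and from 600 to 900 bases 0.76 (9 genes) beside 0.10. From 900 to 1500 bases it was 0.32 (11 genes) beside -0.01. In each of these ranges the members' median lay above that of all genes, a difference that was not tested. The median over all genes fell at each step, and that of the members at each step but the one to 600 to 900 bases. WT replicate 3 minus the mean of WT replicates 1 and 2 was also higher for short genes. Its median over members was 0.67 up to 300 bases and 0.02 from 900 to 1500 bases, beside 0.29 and 0.02 over all genes. KO replicate 1 minus the WT mean went from 0.37 to 0.10 over members between these ranges. KO replicate 3 went the other way, from -0.22 to 0.04. Across genes, which share the libraries and are not replicates, the excess and the log2 of coding length had a Pearson r of -0.57 and a Spearman rho of -0.68 over the 89 nuclear genes, and -0.30 and -0.28 over 12306 protein-coding genes. The median coding length was 435 bases in the nuclear genes and 1398 bases in all tested protein-coding genes. Of the 47 tested nuclear genes with up to 450 coding bases, 45 were highest in KO replicate 2, beside 64.9% of all such genes.

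The summed levels showed the same split by length. Nuclear genes with up to 450 coding bases summed to 1319, 1410.1 and 1845 CPM in the WT libraries and 1801, 3442 and 1409.7 CPM in the KO libraries. In this sum KO replicate 2 was 2.21 times the mean of the other 5 libraries, and without it the groups overlapped. The 15 nuclear genes with over 900 coding bases summed to 1846, 1925 and 1952 CPM in the WT libraries and 2096, 2195 and 1984 CPM in the KO libraries. There KO replicate 2 was 1.12 times the mean of the others, every KO library lay above every WT library, and the ratio of the group means was 1.096, or 1.07 without KO replicate 2. This sum was chosen after its genes' values were seen and has no test. Among the complexes, KO replicate 2 was 2 times the mean of the others for complex IV, 1.85 times for the accessory and 1.27 times for the core subunits of complex I, 1.69 times for complex III, 1.44 times for complex V and 1.16 times for complex II. The mitochondrial genes were 1.74 times the mean of the others, although only mt-Nd3 and mt-Nd4l among those tested are shorter than 450 coding bases and neither was highest there.

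The choice of nuclear genes moved the place of KO replicate 2 in the ratio of the genomes. Against nuclear genes of over 900 coding bases, its log2 ratio was 3.35, the highest of the 6, where the others lay between 2.46 and 2.91. Against genes of up to 450 coding bases it was 2.70, the second lowest, where the others lay between 2.68 and 3.40. The difference between group means was 0.20 in the first case and -0.12 in the second, and -0.02 and -0.01 without KO replicate 2. Fitted with an offset for transcript length in each library, the medians of the log2 fold change were 0.19 over nuclear and 0.16 over mitochondrial genes, with 0 members called beside 3.61% of all genes.

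**Figure D4:**
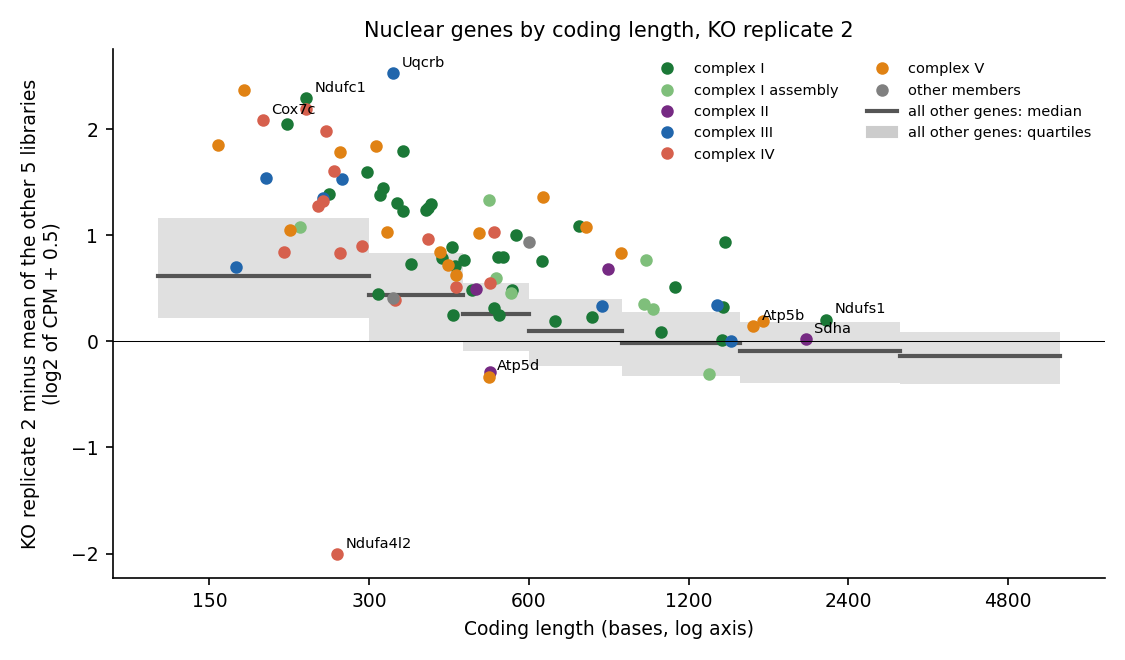
Excess of KO replicate 2 over the mean of the other 5 libraries (log2 of CPM + 0.5) against coding length (log axis) for the tested nuclear genes (points, coloured by complex), with the median (line) and quartiles (band) of all other protein-coding genes by length. Short subunit genes such as Uqcrb at 2.53 stand highest, long ones such as Sdha lie near 0, and Ndufa4l2, with 0 counts in KO replicate 2, is lowest at -2.002. Atp5d at -0.33 and Sdhc at -0.29 also lie below 0.

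Several complex IV subunits exist as pairs of isoforms, and in these cells the general forms were abundant and the restricted ones scarce. Cox4i1, the general form of subunit 4, stood at 254 CPM per kb against 1.67 for Cox4i2, known as a lung and hypoxia form. Cox6a1 stood at 262 against 0.714 for the muscle form Cox6a2, and Cox6b1 at 116 against 4.34 for the testis form Cox6b2. Cox7a2 stood at 57.6 against 0.275 for the muscle form Cox7a1, and Cox8a at 138 against 0.0491 CPM per kb for Cox8b, a form of muscle and brown fat. Cox7b stood at 61.3 CPM per kb, whereas Cox7b2 and Cox8c, both known from testis, had 0 counts in every library, which allows up to 3 counts in each. Ndufa4 stood at 97.9 against 1.41 CPM per kb for Ndufa4l2. Of 11 muscle markers 4 were at 0 in every library and the highest count of any was 132.

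None of the general forms was called changed between KO and WT by edgeR. Cox4i1 had 170.1, 174 and 193 CPM in the WT libraries and 186, 265 and 180.1 CPM in the KO libraries (log2 fold change 0.23 ± 0.15 (SE), adjusted p = 0.488). Cox6a1, the most abundant nuclear complex IV gene per length, had 131, 128 and 153 CPM in the WT libraries and 179.5, 185 and 123 CPM in the KO libraries (log2 fold change 0.25 ± 0.16 (SE), adjusted p = 0.479). Cox8a had 60.6, 65.98 and 72.2 CPM in the WT libraries and 83.6, 119 and 53.1 CPM in the KO libraries (log2 fold change 0.36 ± 0.25 (SE), adjusted p = 0.509). In all 3 KO replicate 2 was highest and KO replicate 3 lay inside or below the WT range, so the groups overlapped, and the log2 fold changes were 0.03, 0.14 and 0.04 without KO replicate 2. Cox6b1, Cox7a2, Cox7b and Ndufa4 had log2 fold changes of 0.75, 0.92, 0.55 and 0.56, and of 0.03, -0.10, -0.009 and -0.03 without KO replicate 2. Cox7a2l, which joins complexes III and IV into supercomplexes, had 90.5, 108 and 113 CPM in the WT libraries and 99.97, 134 and 97.1 CPM in the KO libraries (log2 fold change 0.09 ± 0.15 (SE), adjusted p = 0.799), with overlapping groups, and a log2 fold change of -0.08 without KO replicate 2. Cox4i1 shares 14.7% of its 50-base windows with Emc8 on the opposite strand, and Cox7a2l shares 19.8% with a pseudogene.

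The promoters of the nuclear genes are shown for 3 members that hold the core of the NRF1 motif, since NRF1 is a known activator of respiratory genes: Ndufa5, a complex I arm subunit (chr6:24527477-24527776, minus strand), Ndufb4, a complex I membrane-arm subunit (chr16:37654319-37654618, minus strand), and Sdha (chr13:74350191-74350490, minus strand), all from RefSeq on GRCm38.p6. Each runs from 250 bases before to 50 bases after the start of the gene, with matches to the NRF1 core (GCGCA, any base, then GCGC, on either strand) in capitals.
Ndufa5: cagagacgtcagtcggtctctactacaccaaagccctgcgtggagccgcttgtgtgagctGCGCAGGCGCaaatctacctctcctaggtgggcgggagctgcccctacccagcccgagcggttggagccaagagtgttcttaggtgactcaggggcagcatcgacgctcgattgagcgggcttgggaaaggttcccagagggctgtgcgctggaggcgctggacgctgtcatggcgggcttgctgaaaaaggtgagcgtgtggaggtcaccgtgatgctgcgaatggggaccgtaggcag
Ndufb4: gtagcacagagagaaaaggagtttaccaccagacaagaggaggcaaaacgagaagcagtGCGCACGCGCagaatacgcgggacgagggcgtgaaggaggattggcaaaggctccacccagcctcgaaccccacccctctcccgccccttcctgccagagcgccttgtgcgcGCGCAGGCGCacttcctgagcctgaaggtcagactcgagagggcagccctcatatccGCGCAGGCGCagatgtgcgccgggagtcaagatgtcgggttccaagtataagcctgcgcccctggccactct
Sdha: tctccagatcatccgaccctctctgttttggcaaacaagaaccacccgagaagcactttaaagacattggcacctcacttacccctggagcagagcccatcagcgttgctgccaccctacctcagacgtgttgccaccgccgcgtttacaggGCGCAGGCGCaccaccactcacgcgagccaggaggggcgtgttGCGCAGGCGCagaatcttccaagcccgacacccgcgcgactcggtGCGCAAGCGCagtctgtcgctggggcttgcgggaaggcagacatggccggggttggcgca

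Of the 94 nuclear genes, 76 matched a RefSeq promoter, and 18 of these (23.7%) held the NRF1 core on either strand, beside 6.84% of 16499 promoters of the same length. The letters CCGGAAG, the core bound by ETS factors such as GABP, were found in 22.4% of the members beside 12.2%, and the YY1 core (AAGATGG followed by CGG) in 6.58% beside 1.34%. TATAAA stood in 9.21% beside 12.8%, CCAAT in 44.7% beside 38.8% and CACGTG in 7.89% beside 8.13%. No searched string contains another, and a match describes the letters only, not a bound site. The 3 printed members differed in their excess in KO replicate 2, at 1.79 for Ndufa5, 1.26 for Ndufb4 and 0.02 for Sdha. The median excess was 0.81 over the 18 genes with the NRF1 core and 0.84 over the 55 tested genes without it.

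Other mitochondrial gene lists, chosen with earlier results of these data known, were given the same edgeR test, beside 2.67% of all tested genes called and 14.5% at an unadjusted p under 0.05. Of 77 tested genes of the mitochondrial ribosome, which translates the 13 mitochondrial messages, 73 had a positive log2 fold change, 0 were called and 9 had an unadjusted p under 0.05, with a median of 0.28 and 0.11 without KO replicate 2. Mrpl15 of its large subunit had 18.6, 20.97 and 27.4 CPM in the WT libraries and 31.3, 44.3 and 28.2 CPM in the KO libraries (log2 fold change 0.63 ± 0.20 (SE), adjusted p = 0.168), and Mrpl47 had 7.66, 8.06 and 8.84 CPM in the WT libraries and 9.71, 15.9 and 11.1 CPM in the KO libraries (log2 fold change 0.58 ± 0.21 (SE), adjusted p = 0.243). In both genes every KO library lay above every WT library, and without KO replicate 2 the log2 fold changes were 0.41 and 0.35. Mrpl47 shares sequence with Ndufb5 on the opposite strand. The strand setting is not given, so reads of the shared part cannot be told apart. Of 42 assembly factors outside the module 0 were called and 1 had an unadjusted p under 0.05, with a median of 0.20 and of 0.07 without KO replicate 2. Tmem70, which assembles ATP synthase, had 36.3, 40.99 and 51.3 CPM in the WT libraries and 51.8, 64.3 and 53.9 CPM in the KO libraries (log2 fold change 0.40 ± 0.15 (SE), adjusted p = 0.252), and Nubpl, which delivers iron-sulphur clusters to complex I, had a log2 fold change of 0.64. These became 0.30 and 0.45 without KO replicate 2. Of 32 genes of mitochondrial DNA expression and upkeep 0 were called and 1 had an unadjusted p under 0.05, with a median of 0.12 and of 0.08 without KO replicate 2. Mtpap, the mitochondrial poly(A) polymerase, had 27.3, 23.7 and 25.7 CPM in the WT libraries and 28.9, 35.4 and 31.1 CPM in the KO libraries (log2 fold change 0.32 ± 0.13 (SE), adjusted p = 0.305), and Taco1, an activator of mt-Co1 translation, had 8.61, 10.5 and 9.22 CPM in the WT libraries and 7.13, 5.98 and 8.12 CPM in the KO libraries (log2 fold change -0.41 ± 0.20 (SE), adjusted p = 0.3699). Mtpap lay higher and Taco1 lower in every KO library, at 0.23 and -0.30 without KO replicate 2.

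Biogenesis regulators, the TCA cycle and mitochondrial mass markers held 0 called genes by edgeR, beside 2.67% of all tested genes. At an unadjusted p under 0.05 there were 0 of 9, 5 of 19 and 5 of 20 genes, beside 14.5%. The median over the regulators was 0.07, and 0.04 without KO replicate 2, with Ppargc1b at 1.003 ± 0.46 (SE) and Nrf1 at 0.27 ± 0.15. Over the TCA cycle genes the median was 0.14, and 0.09 without KO replicate 2. Idh3a, a subunit of isocitrate dehydrogenase, had 76.2, 80.2 and 92.8 CPM in the WT libraries and 100.4, 127 and 107 CPM in the KO libraries (log2 fold change 0.42 ± 0.12 (SE), adjusted p = 0.133), and Pcx, pyruvate carboxylase, had 47.2, 47.4 and 37.5 CPM in the WT libraries and 36.1, 26.4 and 30.4 CPM in the KO libraries (log2 fold change -0.51 ± 0.15 (SE), adjusted p = 0.138). Idh3a lay higher and Pcx lower in every KO library, at 0.32 and -0.40 without KO replicate 2. Over the general mitochondrial mass markers the median was 0.19, and 0.12 without KO replicate 2, with the chaperone Hspa9 at 0.36 ± 0.12 (SE) and the import motor subunit Timm44 at 0.30 ± 0.12.

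Hypoxia targets and glycolysis had medians near 0 whose sign turned with KO replicate 2. They were -0.08 over 22 and -0.05 over 16 tested genes with all libraries, and 0.01 and 0.03 without that library. With all libraries edgeR called 0 genes of either list, beside 2.67% of all tested genes. At an unadjusted p under 0.05 there were 5 of 22 hypoxia targets and 2 of 16 glycolysis genes, beside 14.5%. Adm, the peptide adrenomedullin, had 119, 137 and 134 CPM in the WT libraries and 91.3, 105 and 88.3 CPM in the KO libraries (log2 fold change -0.45 ± 0.11 (SE), adjusted p = 0.0693), and Vegfa, the vascular growth factor, had 50.6, 51.9 and 48.3 CPM in the WT libraries and 75.3, 62.6 and 68.3 CPM in the KO libraries (log2 fold change 0.45 ± 0.11 (SE), adjusted p = 0.0703). The groups did not overlap in either gene, and both were called without KO replicate 2, at an edgeR adjusted p of 0.00495 for Adm, which fell, and 0.00732 for Vegfa, which rose. In that fit 4.33% of all tested genes were called. The hypoxia-responsive Cox4i2 and Ndufa4l2 of complex IV were not called. In glycolysis Eno2 stood at a log2 fold change of 0.40 ± 0.15 (SE) and Hk2 at -0.38 ± 0.17.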

How the data were processed

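Gene-level RNA-seq was compared between 3 WT and 3 KO libraries, grouped by sample title. The authors deposited 1 table of raw, whole-number counts per gene, with gene names, biotypes and coordinates. Per the submitters' processing notes, HISAT2, StringTie, SAMtools and mm9 were used. The read counter and strand setting are not given in the sources used here. Of 54409 gene identifiers found in GENCODE M21, 53499 (98.33%) had its start and end, so positions are given as GRCm38. The word Ctrl in the table's column names has no stated meaning. Reads with no gene name took 0 rows.

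The test was the robust quasi-likelihood test of edgeR 4.0.16 in R 4.3.3, with TMM factors and genes passing filterByExpr (minimum count 10, minimum total 15), adjusted over all 13705 tested genes. A standard error (SE) is the size of the log2 fold change divided by the root of F. CPM values use the same factors. An exact permutation test of 3 libraries against 3 reaches p = 0.1 at best, which is why single genes were judged by the model over all genes. On simulated counts of 13430 genes for KO against WT, 200 of them changed, 19 of 175 calls were false. DESeq2 1.42.0, limma-voom (limma 3.58.1), other scalings and filters, a replicate block and each library left out were tried, and a transcript length offset and the splits by coding length were chosen after seeing the data. Members and lists were chosen with earlier results of these data known. Genes were named by a rule: all mitochondrial genes, the 3 of smallest p and the most abundant per complex, isoform pairs, and the called genes or else the 2 of smallest p of related lists. Shared sequence was counted as 50-base windows in GENCODE M21 transcripts of other genes. Depth was 16114974 to 18616433 counts, where 3 counts is the limit that a count of 0 allows, for counting error only.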

Additional observations from a re-analysis of the deposited data

Results flagged for a closer look

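Some rows other than the mitochondrial protein-coding genes also stood apart in KO replicate 2, and others did not. Mitochondrial rRNA summed to 13738 counts there against 5379 to 9383 in the other libraries. Among tRNA rows mt-Tn had 59 counts there against 5 to 21 elsewhere, whereas mt-Th had 11 against 19 to 50 and mt-Tg 2 against 5 to 25. mt-Tp, the mitochondrial proline tRNA, had 579 counts there against 29, 38 and 37 in WT and 37 and 30 in the other KO libraries. It drew attention as a row that no comparison used, with a count far above the control libraries. The chromosome 1 copy of mitochondrial DNA summed to 1838 counts in KO replicate 2 against 739, 676 and 1240 in WT and 719 and 1059 in the other KO libraries, and drew attention in the same way. By counts, the order of libraries for the copy, with KO replicate 2 first and WT replicate 3 second, was that of mt-Co2, whose sequence it shares. The same order was found for mt-Nd1, which had no window elsewhere, so it is not particular to genes that share the sequence.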

How the results depend on the processing

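The count of members called was 0 under every setting tried except that without the filter on low counts, which called 13 members (12 nuclear genes higher, mt-Nd4l lower, beside 3.67% of all genes), a change whose cause was not tested. Over all genes, 366 calls became 883 without the filter and 656 with DESeq2, and leaving out 1 library gave 147 to 610 calls, the highest without KO replicate 2. With a transcript length offset there were 495. Of the genes named by the rule, 0 were called at first, 12 without the filter, 2 with DESeq2 (Adm and Vegfa), 0 to 2 with 1 library left out and 1 (Adm) with the length offset. The difference in the log2 ratio of the genomes was -0.16 to 0.20 over other ways of summing and -0.06 to 0.20 with 1 library left out, against a pooled SD between replicates of 0.23. The sign of the log2 fold change turned with the length offset for mt-Nd6 (-0.028), mt-Atp6 (-0.11), mt-Nd3 (-0.23), Cox6a1 (-0.019), Cox4i2 (-0.26) and Cox7a2l (-0.055), and for Cox4i2 also with limma-voom (-0.11) and the replicate block (-0.073). With 1 library left out the log2 fold change of these genes ranged as follows. Cox4i2 lay between -0.82 and 0.37, Cox6b2 lay between -0.58 and 0.27, Cox7a2 lay between -0.098 and 1.28, Cox7a2l lay between -0.077 and 0.17, Cox7b lay between -0.0091 and 0.77. Ndufa4 lay between -0.030 and 0.80, mt-Atp6 lay between -0.27 and 0.81, mt-Co2 lay between -0.084 and 0.75, mt-Co3 lay between -0.14 and 0.65, mt-Nd3 lay between -0.15 and 0.28. Libraries of the same replicate number gave correlations of deviations of 0.14, -0.11 and -0.19. Libraries of unlike number were not compared, so these values cannot show whether the numbers pair the libraries, which the labels do not say. The replicate block gave 331 calls over all genes, 0 of them members, and medians of 0.34 for nuclear and 0.29 for mitochondrial genes. Depth limits the scarce members, since 6 of 107 had too few counts to be tested.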

Other observations

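Ucp2, an uncoupling protein of the inner membrane that no part of the naming rule took, was called lower in KO, with 31.01, 33.7 and 26.2 CPM in the WT libraries and 16.1, 14.1 and 18.03 CPM in the KO libraries (log2 fold change -0.91 ± 0.15 (SE), adjusted p = 0.0101 by edgeR's quasi-likelihood test). The groups did not overlap, and the log2 fold change was -0.83 without KO replicate 2, at an adjusted p of 0.00183. It was named after its values were seen. Ucp2 is known to be abundant in macrophages, whose markers fell with it in the same libraries, and their part in this value was not tested.

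Of 6 osteoblast genes on a list, 4 were tested, and Sp7, Ibsp and Alpl rose in KO by edgeR's quasi-likelihood test, beside 2.67% of all tested genes called in either direction. The other tested gene, Runx2, a transcription factor of the lineage, had 63.1, 55.97 and 47.3 CPM in the WT libraries and 48.2, 56.2 and 56.3 CPM in the KO libraries (log2 fold change -0.05 ± 0.13 (SE), adjusted p = 0.8802). Sp7, a transcription factor of bone formation, had 2.48, 1.89 and 2.98 CPM in the WT libraries and 12.05, 6.28 and 9.44 CPM in the KO libraries (log2 fold change 1.91 ± 0.30 (SE), adjusted p = 0.00609). Alpl, the alkaline phosphatase of mineralising cells, had 5.95, 4.09 and 5.697 CPM in the WT libraries and 15.4, 8.56 and 15.2 CPM in the KO libraries (log2 fold change 1.31 ± 0.26 (SE), adjusted p = 0.0254). In Sp7 and Alpl KO replicate 2 was the lowest KO library and still above every WT library. Cytochrome c, the carrier between complexes III and IV, is encoded by Cycs and stood at 26.2, 27.8 and 29.5 CPM in the WT libraries and 29.01, 63.3 and 29.2 CPM in the KO libraries (log2 fold change 0.54 ± 0.28 (SE), adjusted p = 0.418), with KO replicate 2 highest and a log2 fold change of 0.06 without it.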
